A study of Rattus norvegicus with 8 samples.

Results

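The genes described here are 9 direct transcriptional targets of the tumor suppressor p53, namely Mdm2, Cdkn1a, Zmat3, Ccng1, Sesn1, Sesn2, Phlda3, Pmaip1 and Gadd45a. Each was taken by its gene name, and it counted as measured where the array annotation gave a probe set with that symbol alone. By this rule 8 of the 9 genes were measured, with 1 probe set each among 23188 probe sets in all. Sesn1 was not analysed here.

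Levels came from 8 Affymetrix Clariom S rat arrays, 4 from cultures of primary oligodendrocyte progenitor cells (OPCs) given interleukin-4 (IL-4) at 20 ng/mL for 3 d, and 4 from OPC cultures given PBS for 3 d. The cells were prepared from brains of mixed-sex Sprague Dawley pups at postnatal day 1-2, and the flasks were shaken to remove microglia. The OPCs were maintained in a serum-free defined medium with insulin, apo-transferrin and hydrocortisone, to which the methods add the mitogens PDGF and bFGF. Whether these were present during the treatment is not given in the sources used here. The methods state 4 biologic replicates per condition. The IL-4 arrays lay closer to each other than the PBS arrays did, with 3 or more equal values in 4.06% of probe sets with IL-4 and in 0.0992% with PBS, and a median SD of 0.154 with IL-4 and 0.219 with PBS. Whether the IL-4 samples were as separate as the PBS samples was not tested, and if they were not, the IL-4 SDs and the p-values given here are too small. The values are the authors' log2 RMA signals, on which a difference of 1 is a 2-fold change, and signals of different probe sets do not give their relative expression. Each array reads the RNA of a whole culture, so fewer cells of a type and less RNA per cell cannot be told apart.

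p53 is a transcription factor that is held low in unstressed cells and is stabilized by DNA damage and other stress. It binds as a tetramer to a response element of 2 consecutive 10-base repeats, each with a C and a G at fixed places in its core. Its targets include a cyclin-dependent kinase inhibitor that stops the cell cycle (Cdkn1a), the ubiquitin ligase that removes p53 itself (Mdm2), and genes of DNA repair, metabolism and cell death. In the oligodendrocyte lineage, exit from the cell cycle accompanies the passage of a progenitor to a myelin-forming cell.

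Windows around the starts of the targets were read first for this element, since the response element is the sequence through which p53 acts on its targets. RefSeq windows on GRCr8, of 250 bases before and 50 after a gene's start, were matched for 8 of the 9 genes, all but Zmat3. The best match to the p53 response element consensus was scored over 20 positions on both strands, with the core C and G required in both repeats and at most 1 base between them. The best matches of Cdkn1a and Ccng1 held 19 of the 20 positions, a score reached in 31 of 33469 windows of the genome's table (0.0926%). Both stretches are given with the 20 positions of the best match in capitals, of which 19 fit the consensus. They are read 5′ to 3′ on the strand of the gene and stopped at the outermost annotated start of the gene.

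Cdkn1a, chr20:7150682-7150819, plus strand: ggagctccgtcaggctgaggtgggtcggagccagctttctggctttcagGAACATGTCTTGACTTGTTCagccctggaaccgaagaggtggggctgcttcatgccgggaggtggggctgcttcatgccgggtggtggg

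Ccng1, chr10:25684877-25685126, minus strand: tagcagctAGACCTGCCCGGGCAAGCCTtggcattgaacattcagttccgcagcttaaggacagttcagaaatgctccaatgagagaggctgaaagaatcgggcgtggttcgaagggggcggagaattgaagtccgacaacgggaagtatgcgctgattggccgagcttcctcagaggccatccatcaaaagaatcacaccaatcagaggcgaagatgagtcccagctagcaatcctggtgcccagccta

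The Cdkn1a match lies 89 bases before the outermost start of the gene, and the Ccng1 match lies 242 bases before its start. Among the other members the best scores were 17 for Sesn1 and Pmaip1, 16 for Gadd45a, 15 for Mdm2, 13 for Phlda3 and 12 for Sesn2. A score of 17 or more was found in 2.52% of all windows, and one of 16 or more in 8.77%. The Mdm2 and Sesn1 windows belong to a start inside the gene and hold no base before its outermost start. A match in these letters is a description of the window and was not tested for binding.

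Of the 8 measured targets, 6 had lower means in IL-4-treated cultures, and 4 of these passed the test. Zmat3, Cdkn1a, Gadd45a and Ccng1 were lower at an adjusted p under 0.05 (limma, Benjamini-Hochberg over all 23188 probe sets), and Zmat3 and Cdkn1a fell by more than 2-fold. None was higher, while 1 of 8 was higher at an unadjusted p under 0.05 and 1 of 8 by the methods' t-test after adjustment. Of all probe sets, 19.7% were lower at this threshold and 12% were higher, while 2.34% were lower and 2.16% higher by more than 2-fold as well. The median log2 difference was -0.46 over the 8 genes, beside -0.07 over the whole array. The IL-4 arrays all lay below the PBS arrays for 5 of the 8 genes, against 20.6% of all probe sets, and all above them for 1 of the 8, against 12.2%.

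**Figure D1:**
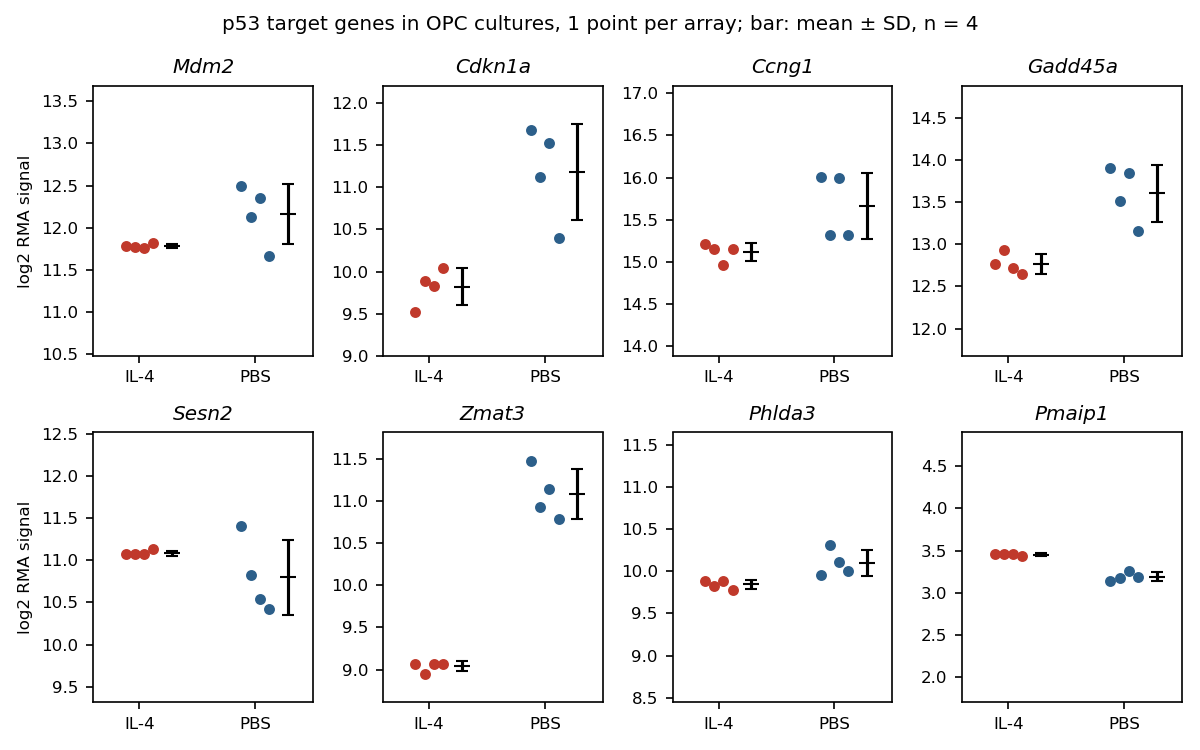
Log2 RMA signal (y axis) of the 8 measured p53 targets in IL-4-treated cultures (red) and PBS-treated cultures (blue), 1 point per array, with the mean and SD (n = 4) beside each group. Zmat3 was between 8.95 and 9.07 on the IL-4 arrays and between 10.78 and 11.47 on the PBS arrays, and for all 8 genes the PBS points spread more widely than the IL-4 points.

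Zmat3, which encodes a zinc finger protein that binds RNA and is induced by p53, had the largest difference of the 8 genes. Its log2 signal was 9.07, 8.95, 9.07 and 9.07 on the IL-4 arrays, against 11.47, 10.93, 11.14 and 10.78 on the PBS arrays. The groups were far apart, with every IL-4 array more than 1 log2 unit under every PBS array. Zmat3 averaged 9.04 ± 0.06 with IL-4 and 11.08 ± 0.30 with PBS (SD, n = 4 each), a log2 difference of -2.04 (SE 0.15, 95% interval -2.37 to -1.71, limma adjusted p = 1.61e-05), or 4.11-fold lower. It was the only target that passed under all 18 alternative settings, with an adjusted p of at most 0.0438.

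Cdkn1a encodes p21, the inhibitor of cyclin-dependent kinases through which p53 halts the cell cycle. Its log2 signal was 9.52, 9.89, 9.83 and 10.04 on the IL-4 arrays, against 11.68, 11.12, 11.53 and 10.40 on the PBS arrays. PBS array 4 was the lowest of its group and lay closest to the IL-4 arrays, but the groups did not overlap. Cdkn1a averaged 9.82 ± 0.22 with IL-4 and 11.18 ± 0.57 with PBS (SD, n = 4 each), which gave a log2 difference of -1.36 (SE 0.25, 95% interval -1.91 to -0.82, limma adjusted p = 0.00245), or 2.57-fold lower. Its window holds a p53 element match of 19 positions, shown above.

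Gadd45a encodes a stress protein that binds PCNA and kinases and takes part in growth arrest and DNA repair. Levels were 12.76, 12.93, 12.72 and 12.65 on the IL-4 arrays, against 13.90, 13.51, 13.84 and 13.16 on the PBS arrays, again with PBS array 4 closest to the IL-4 arrays and no overlap. The mean was 12.77 ± 0.12 with IL-4 and 13.60 ± 0.34 with PBS (SD, n = 4 each). The log2 difference was -0.84 (SE 0.16, 95% interval -1.20 to -0.48, limma adjusted p = 0.00373), or 1.79-fold lower.

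Ccng1 encodes cyclin G1, which recruits a phosphatase to Mdm2. It had a log2 signal of 15.21, 15.15, 14.96 and 15.15 on the IL-4 arrays, against 16.01, 15.32, 16.00 and 15.32 on the PBS arrays. The PBS arrays fell into a high and a low pair, and the low pair lay only just above the IL-4 arrays. The mean was 15.12 ± 0.11 with IL-4 and 15.66 ± 0.40 with PBS (SD, n = 4 each), a log2 difference of -0.55 (SE 0.18, 95% interval -0.94 to -0.15, limma adjusted p = 0.0394), or 1.46-fold lower. The call was lost in 9 of 18 alternative settings, among them quantile normalization (adjusted p = 0.0654) and the fits without any 1 IL-4 array or without PBS array 1 or 3 (adjusted p of up to 0.106).

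Mdm2, the ubiquitin ligase that p53 induces and that in turn degrades p53, did not pass the test. On the log2 scale it read 11.78, 11.77, 11.76 and 11.82 on the IL-4 arrays, against 12.49, 12.13, 12.35 and 11.67 on the PBS arrays. PBS arrays 1 to 3 lay above all IL-4 arrays and PBS array 4 lay below them. The mean was 11.78 ± 0.03 with IL-4 and 12.16 ± 0.36 with PBS (SD, n = 4 each), a log2 difference of -0.38 (SE 0.16, 95% interval -0.74 to -0.02, limma adjusted p = 0.101). Without PBS array 4 the difference was -0.54 (adjusted p = 0.0076), and with array weights it was -0.44 (adjusted p = 0.033), both past the threshold. With quantile normalization it was -0.21 (adjusted p = 0.342), and without PBS array 1 it was -0.27 (adjusted p = 0.233).

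Phlda3, which encodes a pleckstrin homology domain protein that competes with Akt for membrane lipids, had all IL-4 arrays below all PBS arrays without passing the test. Levels were 9.89, 9.82, 9.89 and 9.78 on the IL-4 arrays, against 9.96, 10.31, 10.11 and 10.00 on the PBS arrays. The mean was 9.85 ± 0.05 with IL-4 and 10.10 ± 0.16 with PBS (SD, n = 4 each), and the log2 difference was -0.25 (SE 0.11, limma adjusted p = 0.114). It passed in none of the 18 alternative settings, and with quantile normalization the difference was -0.10 (adjusted p = 0.551).

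The remaining pair of targets had higher means with IL-4, and neither passed the test. Pmaip1 encodes Noxa, a member of the BH3-only class of proteins that promote cell death, and its log2 signal was 3.46, 3.46, 3.46 and 3.43 on the IL-4 arrays, against 3.14, 3.17, 3.26 and 3.19 on the PBS arrays. These signals lie at the dim end of the array, above those of only 3.73% of probe sets, so the size of the difference cannot be read exactly. The log2 difference was 0.26 (SE 0.10, 95% interval 0.05 to 0.48, limma adjusted p = 0.0603). The call turned to higher with quantile normalization (0.32, adjusted p = 0.0293).

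Sesn2 encodes a sestrin, a stress protein that restrains mTORC1 when leucine is scarce, and it is induced by ATF4 as well as by p53. Its log2 signal was 11.07, 11.07, 11.07 and 11.13 on the IL-4 arrays, against 11.41, 10.82, 10.54 and 10.42 on the PBS arrays. The IL-4 arrays lay between PBS array 1 and the other PBS arrays. The mean was 11.09 ± 0.03 with IL-4 and 10.80 ± 0.44 with PBS (SD, n = 4 each), a log2 difference of 0.29 (SE 0.19, 95% interval -0.13 to 0.71, limma adjusted p = 0.272). Without PBS array 1 the difference was 0.49 (adjusted p = 0.0177), while without PBS array 4 it was 0.16 (adjusted p = 0.532) and with quantile normalization 0.44 (adjusted p = 0.0981).

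The PBS arrays stood in a repeated order across the targets. PBS array 1 was the highest and PBS array 4 the lowest of the PBS arrays, ties included, for 6 of the 8 genes (75%), which held for 2215 of 23188 probe sets (9.55%). The exceptions were Phlda3 and Pmaip1, in which PBS array 1 was the lowest. This order was taken from the same values, so the shares that hold it are a description and not a test. Averaged over the 8 genes, the log2 signal was 10.35 to 10.38 on the IL-4 arrays, against 11.26, 10.91, 11.10 and 10.62 on PBS arrays 1 to 4.

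**Figure D2:**
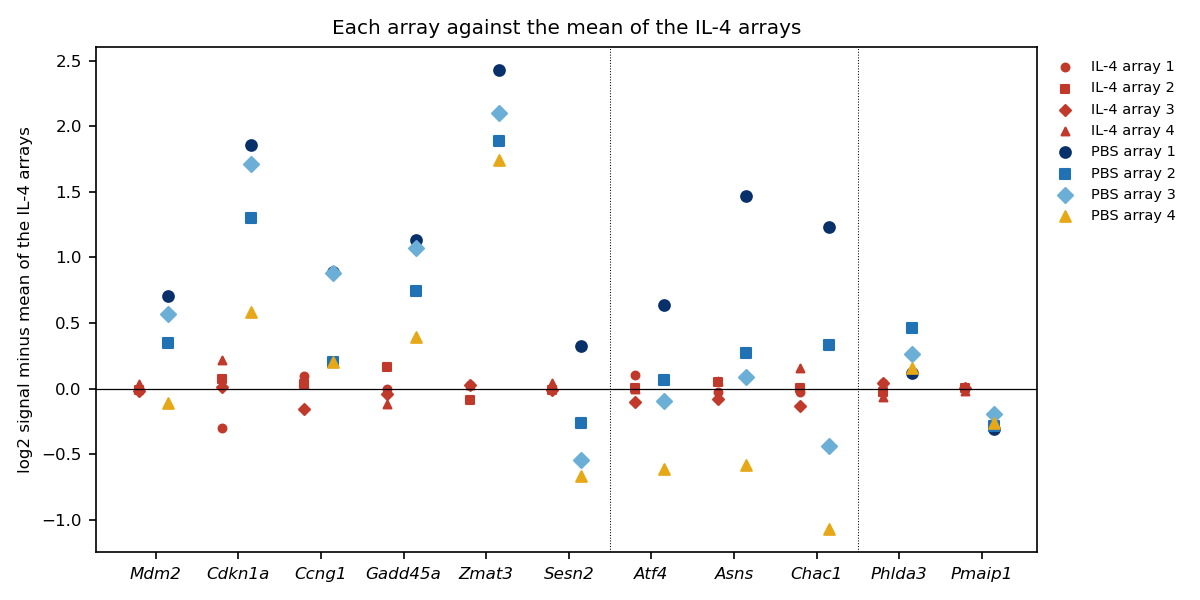
Log2 signal of each array minus the mean of the 4 IL-4 arrays (y axis) for the measured p53 targets and for the ATF4 pathway genes Atf4, Asns and Chac1, with IL-4 arrays in red and PBS arrays by shape and color. PBS array 1 is highest and PBS array 4 lowest, with a tie in Ccng1, for Mdm2, Cdkn1a, Ccng1, Gadd45a, Zmat3 and Sesn2, while the IL-4 arrays stay close to 0.

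The closeness of the IL-4 arrays reached the targets. For Zmat3, Sesn2 and Pmaip1, 3 of the IL-4 arrays held the same value to 2 decimals, and no target had 3 equal PBS values. With the IL-4 arrays averaged to 1 sample, which assumes that this sample varies like the PBS arrays, Zmat3 alone passed (adjusted p = 0.0438), while Cdkn1a (adjusted p = 0.202), Gadd45a (adjusted p = 0.244) and Ccng1 (adjusted p = 0.463) did not. This setting was chosen after the data had been seen.

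Each list of cell type markers held genes that passed the test, while the list means of the IL-4 and PBS arrays overlapped in every list. Microglial markers, 13 of 14 measured, averaged 9.22 to 9.33 on the IL-4 arrays, against 8.77, 8.50, 8.45 and 9.96 on PBS arrays 1 to 4. In IL-4-treated cultures 6 of the 13 were higher, all by more than 2-fold and led by C1qb (1.96), and 2 lower, led by Cx3cr1 (-1.46). PBS array 4, which had the lowest level of 6 of the p53 targets, had the highest microglial mean. PBS array 1, which had the highest level of the same 6 targets, had the next highest microglial mean. OPC markers averaged 14.33 to 14.40 with IL-4 and 14.04 to 14.44 with PBS, and oligodendrocyte markers averaged 15.91 to 15.99 with IL-4 and 14.97 to 16.10 with PBS. Of the OPC markers 1 of 8 was higher, Vcan (0.945), and 1 lower, Sox10 (-0.455), with a median log2 difference of 0.21 over the list. Of the oligodendrocyte markers 4 of 9 were higher, led by Mal (3.31), and 1 lower, Myrf (-0.67). The marker counts stand beside 12% of all probe sets higher and 19.7% lower. The OPC marker Cspg4, picked after its values were seen, averaged 6.93 with IL-4 and 7.52 with PBS and did not pass (limma adjusted p = 0.273). Astrocyte markers averaged 8.96 to 9.23 with IL-4 and 8.56 to 9.00 with PBS, neuronal markers 8.27 to 8.41 with IL-4 and 8.40 to 9.08 with PBS, and endothelial and pericyte markers 4.52 to 4.59 with IL-4 and 4.50 to 4.66 with PBS. These means hold genes that went both ways. Of the astrocyte markers 3 of 8 were higher, led by S100b (2.39), and 3 lower, led by Slc1a3 (-1.03). Of the neuronal markers 1 of 9 was higher, Map2 (0.60), and 3 lower, led by Tubb3 (-2.09). Of the endothelial and pericyte markers 1 of 6 was higher, Pecam1 (1.85), and 3 lower, led by Pdgfrb (-1.14). The part of these cells in the levels of the p53 targets was not tested.

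Gadd45a and Ccng1 belong to gene families in which a relative rose with IL-4. Of 10 listed relatives 9 were measured, and 3 were higher and 1 was lower with IL-4, beside 12% and 19.7% of all probe sets, with a median log2 difference of 0.21. Gadd45b, a stress gene induced by cytokines, had a log2 signal of 13.66, 13.98, 13.98 and 13.88 on the IL-4 arrays, against 13.01, 12.91, 13.62 and 12.38 on the PBS arrays. It was higher on every IL-4 array than on every PBS array, with a log2 difference of 0.90 (SE 0.22, limma adjusted p = 0.0108), where Gadd45a was lower by 0.84. The third member, Gadd45g, did not pass (0.35, adjusted p = 0.103).

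Ccng2, a cyclin G gene that FoxO factors induce, had a log2 signal of 8.51, 8.46, 8.29 and 8.10 on the IL-4 arrays, against 7.73, 7.72, 7.65 and 7.85 on the PBS arrays. It was higher with IL-4 without overlap, by 0.60 on the log2 scale (SE 0.12, limma adjusted p = 0.00424), where Ccng1 was lower by 0.55. Sesn3, the FoxO-induced sestrin, had a log2 signal of 13.26, 13.11, 12.98 and 13.34 on the IL-4 arrays, against 12.10, 12.16, 12.21 and 12.18 on the PBS arrays. It was higher by 1.01 (SE 0.11, limma adjusted p = 2.19e-04), so of the sestrins measured the one that is not a classical p53 target rose and Sesn2 did not pass.

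In the family of cyclin-dependent kinase inhibitors, Cdkn1c, which encodes p57, fell beside Cdkn1a. Levels were 10.76, 10.49, 10.72 and 10.72 on the IL-4 arrays, against 12.93, 11.89, 12.08 and 12.04 on the PBS arrays, a difference of -1.56 (SE 0.20, limma adjusted p = 4.52e-04) without overlap. Cdkn1b, which encodes p27, did not pass (-0.22, adjusted p = 0.325). Neither did Mdm4, the relative of Mdm2 that inhibits p53 (-0.10, adjusted p = 0.626), nor Phlda1 (0.20, adjusted p = 0.528), nor Phlda2 (-0.01, adjusted p = 0.981).

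The ratio of a target to its relative within each array was compared between the groups by an exact two-sided permutation test for 9 pairs, in which 4 arrays against 4 allow a smallest p of 0.0286. In 5 pairs the IL-4 arrays did not overlap the PBS arrays and reached that p, which became 0.0514 after Benjamini-Hochberg adjustment over the 9 pairs, so no pair passed. Of single probe sets, 20.6% had all IL-4 arrays below all PBS arrays and 12.2% had them all above. No such share was computed for ratios of other genes, and pairs that share a gene, such as Gadd45a, are not independent. The log2 ratio of Gadd45a to Gadd45b averaged -1.11 ± 0.17 with IL-4 and 0.62 ± 0.29 with PBS (SD, n = 4 each), which is a difference of -1.73 and the largest of the 9. The ratio of Ccng1 to Ccng2 differed by -1.15, that of Cdkn1a to Cdkn1b by -1.14, that of Gadd45a to Gadd45g by -1.19 and that of Sesn2 to Sesn3 by -0.72. The ratio of Cdkn1a to Cdkn1c, both of which fell, differed by 0.20 (exact permutation p = 0.514), and the groups overlapped.

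**Figure D3:**
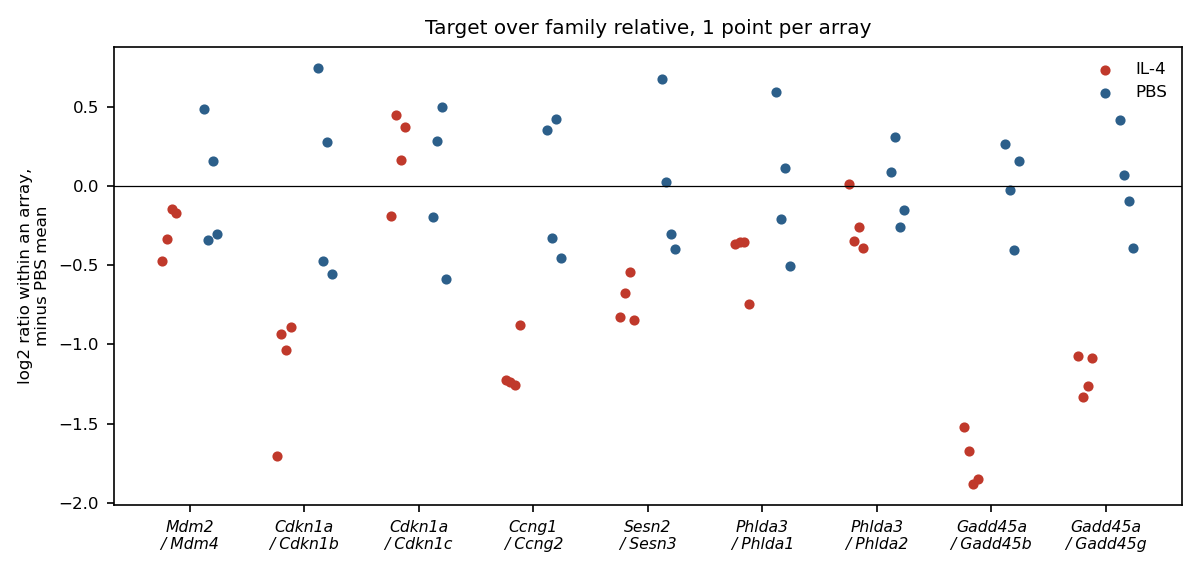
Log2 ratio of each p53 target to a family relative within an array, minus the mean ratio of the PBS arrays (y axis), 1 point per array, with IL-4 arrays in red left of PBS arrays in blue. The IL-4 points lie apart from and below the PBS points in 5 pairs, with a mean difference of -1.73 log2 units for Gadd45a to Gadd45b, and overlap them in the other 4.

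Beyond the 9 genes, other established p53 targets went both ways. Of 34 listed, 29 were measured, and 6 were higher and 9 lower at an adjusted p under 0.05 (limma), with a median log2 difference of -0.03. The share lower was 9 of 29 beside 19.7% of all probe sets, and the share higher 6 of 29 beside 12%.

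Among 10 measured targets of growth arrest and DNA repair, 3 were higher, 3 were lower and 4 did not pass. Ckap2, which encodes a spindle protein, was higher by 1.32 (limma adjusted p = 0.00429), Sertad1, a cofactor of the cyclin D-Cdk4 complex and of E2F, by 1.28 (adjusted p = 3.51e-04), and Plk2, a polo-like kinase, by 0.69 (adjusted p = 0.00451). These genes have roles in proliferation or at the spindle as well as in the p53 response. The cause of their rises was not tested. Ddb2, which recognizes ultraviolet lesions in DNA, was lower with a difference of -0.73 (adjusted p = 0.0284), although its arrays overlapped between the groups and the call was lost without single arrays (adjusted p of up to 0.0753). The translesion polymerase Polk and the phosphatase Ppm1d were the others that fell (-0.51 with adjusted p = 0.00448, and -0.32 with adjusted p = 0.0458). The call on Ppm1d was lost without single arrays as well (adjusted p of up to 0.123).

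Among 10 measured targets of cell death, 1 was higher, 3 were lower and 6 did not pass. Triap1, whose product limits apoptosis, had a log2 signal of 8.20, 8.19, 8.19 and 8.33 on the IL-4 arrays, against 9.70, 9.10, 9.40 and 9.31 on the PBS arrays. All IL-4 arrays lay below all PBS arrays, and the difference was -1.15 (SE 0.13, limma adjusted p = 2.76e-04), or 2.22-fold lower. Aen, an exonuclease of apoptosis (-0.87, adjusted p = 0.00449), and Ei24, a membrane protein of the endoplasmic reticulum (-0.63, adjusted p = 0.00214), fell as well. Fas, the death receptor, was higher by 0.47 (adjusted p = 0.0396) with overlapping arrays, and the call was lost without single arrays (adjusted p of up to 0.105). The mitochondrial apoptosis genes Bax (0.03, adjusted p = 0.927) and Bbc3, which encodes Puma (0.44, adjusted p = 0.109), did not pass.

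Among 9 targets of metabolism and signaling, 2 were higher, 3 were lower and 4 did not pass. Slc12a4, a potassium chloride cotransporter, was higher by 1.20 (limma adjusted p = 0.0172), and Cd82, a tetraspanin, by 0.47 (adjusted p = 0.0337). Dram1, a lysosomal membrane protein linked to autophagy (-0.67, adjusted p = 0.00216), Epha2, an ephrin receptor whose signal was above that of only 3.09% of probe sets (-0.67, adjusted p = 0.0103), and Tigar, a phosphatase that diverts glucose toward the pentose phosphate pathway (-0.38, adjusted p = 0.0269), fell. The calls on Cd82 and Tigar were lost without single arrays (adjusted p of up to 0.0918 and 0.0693).

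**Figure D4:**
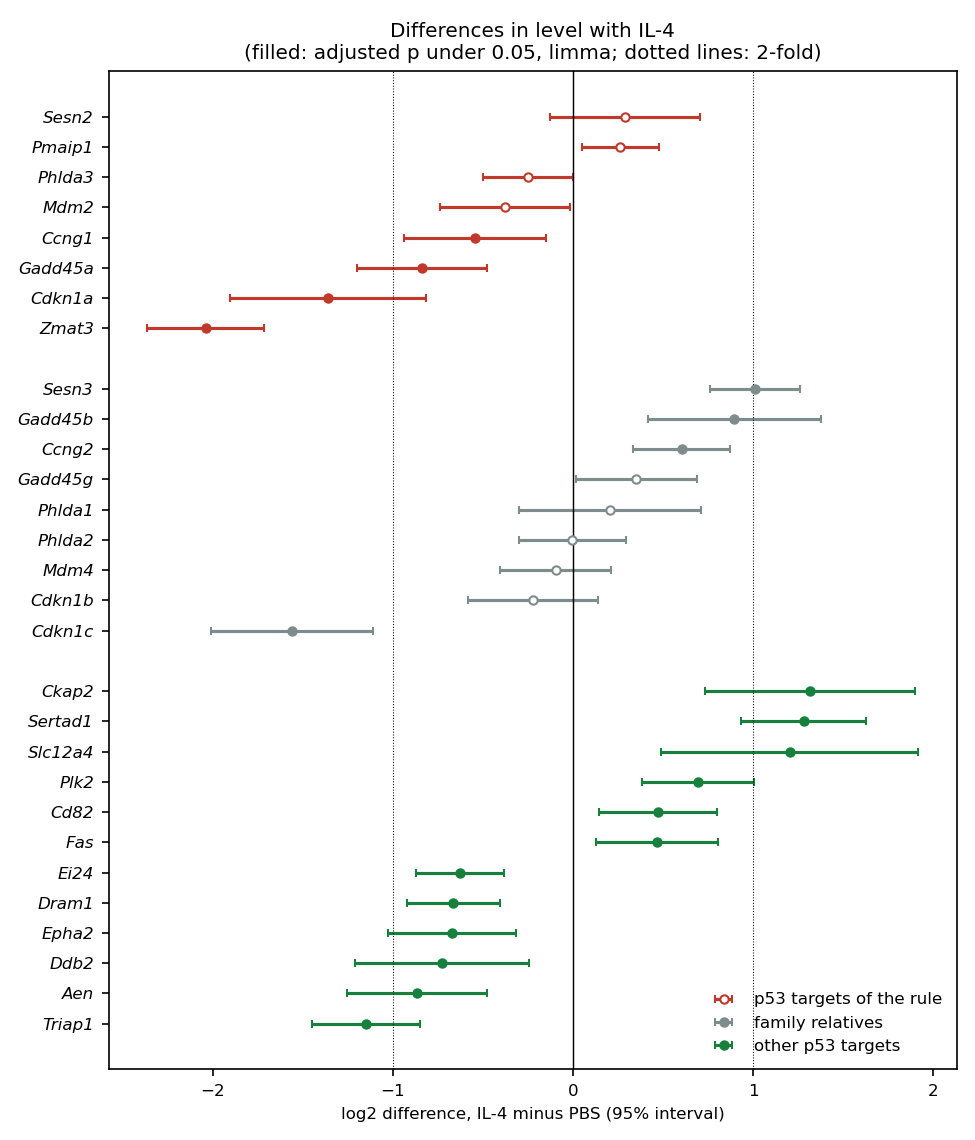
Log2 difference of IL-4 minus PBS (x axis) with its 95% interval for the p53 targets of the rule (red), their family relatives (gray) and the other p53 targets named by size of change (green), where filled points passed an adjusted p under 0.05 in limma and dotted lines mark 2-fold. Zmat3 (-2.04), Cdkn1a (-1.36), Cdkn1c (-1.56) and Triap1 (-1.15) lie beyond the 2-fold line on the lower side, and Sesn3 (1.01), Ckap2 (1.32), Sertad1 (1.28) and Slc12a4 (1.20) lie beyond it on the higher side.

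Element matches of 18 or more of the 20 positions were found in 0.648% of all windows, and in 3 of the 30 relatives and other targets that have a window. They are shown for Ckap2, which rose, for Aen, which fell, and for Pidd1, which did not pass (0.32, limma adjusted p = 0.0542), with the 4 core bases of each repeat in capitals. The Ckap2 match lies 228 bases before the outermost start of the gene, while the Aen and Pidd1 matches lie past it, inside the gene.

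Ckap2, chr16:76541886-76541905, plus strand: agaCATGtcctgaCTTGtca

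Aen, chr1:142224503-142224522, plus strand: gggCATGtccgggCAAGcaa

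Pidd1, chr1:205971571-205971590, minus strand: agcCTTGcctaggCAGGctt

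In the same form, the Cdkn1a match is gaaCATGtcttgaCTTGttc and shares the core bases of the Ckap2 match in both repeats, while the levels of these genes differed in opposite directions between IL-4 and PBS.

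Genes that act on p53 itself were read as a list of regulators and kinases. Of 17 listed 12 were measured, 1 was lower, 11 did not pass and the median log2 difference was 0.01. Of all probe sets 19.7% were lower and 12% higher at this threshold. None of the 12 was higher by limma, against 1 at an unadjusted p under 0.05 and 1 by the methods' t-test after adjustment. Kat5, which encodes the acetyltransferase Tip60, was the gene that fell, with a log2 signal of 9.12, 9.19, 9.15 and 9.20 on the IL-4 arrays, against 9.84, 9.82, 9.66 and 9.79 on the PBS arrays (difference -0.61, SE 0.10, limma adjusted p = 0.00149). Usp7, a deubiquitinase of Mdm2 and p53, did not pass (-0.33, adjusted p = 0.0584), but did in 4 alternative settings (adjusted p of 0.0222 without PBS array 2).

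Of 16 listed cell cycle genes of the kind that p21 represses through E2F and the DREAM complex, 13 were measured, and 10 of these were higher in IL-4-treated cultures, beside 12% of all probe sets. By the methods' t-test after adjustment 6 were higher. None was lower by limma, by the methods' t-test or at an unadjusted p under 0.05, and the median log2 difference was 0.86. The 3 that did not pass were Ccnb1 (0.84, limma adjusted p = 0.0617), Ccne1 (0.33, adjusted p = 0.0997) and E2f1 (0.26, adjusted p = 0.354), and the groups overlapped in 4 of the 13. Ccnb1 passed without PBS array 1 (adjusted p = 0.021) and Ccne1 without IL-4 array 3 (adjusted p = 0.0394). Mki67, the marker of cycling cells, had a log2 signal of 13.13, 13.04, 13.37 and 13.13 on the IL-4 arrays, against 11.86, 11.16, 11.11 and 12.10 on the PBS arrays. This was a difference of 1.61 (SE 0.21, limma adjusted p = 4.94e-04) without overlap. Birc5, which encodes survivin (1.43, adjusted p = 5.05e-04), the spindle checkpoint kinase Bub1 (1.11, adjusted p = 0.0119) and the mitotic kinase Aurka (0.99, adjusted p = 9.05e-04) were higher as well.

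The order of the PBS arrays differed between the cell cycle genes and the p53 targets. The cell cycle genes averaged 8.70 to 8.79 on the IL-4 arrays, against 8.07, 7.53, 7.63 and 8.22 on PBS arrays 1 to 4. PBS array 4 had the highest cell cycle mean and the lowest mean of p53 targets, but PBS array 1, with the highest mean of p53 targets, had the next highest cell cycle mean. In a separate assay with BrdU, which labels proliferating cells, the paper reports that IL-4 did not affect OPC proliferation. Which cells of the arrayed cultures cycled was not measured.

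Sesn2 shared the order of its PBS arrays with 3 of the 7 other measured genes of the ATF4 response, the program of amino acid shortage, which were picked after their values were seen. The log2 signal of Asns, which makes asparagine, was 13.81, 13.89, 13.76 and 13.90 on the IL-4 arrays, against 15.31, 14.11, 13.93 and 13.26 on PBS arrays 1 to 4. That of Chac1, which degrades glutathione, was 6.57, 6.60, 6.46 and 6.75 on the IL-4 arrays, against 7.83, 6.93, 6.16 and 5.52 on PBS arrays 1 to 4. Atf4 itself gave 14.54, 14.44, 14.33 and 14.43 on the IL-4 arrays, against 15.07, 14.50, 14.34 and 13.82. All 3 fell in the same order over the PBS arrays as Sesn2, with PBS array 1 above and PBS array 4 below every IL-4 array. The other 4 genes, Atf3, Trib3, Ppp1r15a and Ddit3, did not hold that order. Of the 8 ATF4 response genes, Sesn2 included, 7 did not pass and 1 was lower, Ddit3, which encodes Chop (-0.31, limma adjusted p = 0.0486). That call was lost without single arrays (adjusted p of up to 0.124). None of the 8 was higher by limma or by the methods' t-test, against 1 at an unadjusted p under 0.05. Of all probe sets 19.7% were lower and 12% higher by limma.

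FoxO factors share targets with p53 in the sestrin and cyclin G families. Of 10 FoxO response genes 9 were measured, of which 2 were higher, 2 were lower and 5 did not pass, beside 12% higher and 19.7% lower of all probe sets. The higher genes were Sesn3 and Ccng2, given above. The lower genes were Foxo1 itself (-0.57, limma adjusted p = 0.00612) and Trib1, a pseudokinase (-0.59, adjusted p = 0.0101).

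The genes whose profiles over the 8 arrays lay nearest to those of Cdkn1a and Zmat3 were sought among all single-symbol probe sets, by the root mean square difference of profiles centered on their own means. Nearest to Cdkn1a was Tns1, which encodes tensin, a linker of integrins and actin, at a distance of 0.0964 log2 units. Its levels were 10.28, 10.55, 10.50 and 10.72 on the IL-4 arrays, against 12.36, 11.75, 12.46 and 11.23 on the PBS arrays. As in Cdkn1a, PBS array 4 was the lowest of its group and IL-4 array 1 the lowest of all. Tns1 was picked for its nearness over these same arrays, so the shared order follows from the choice. The next were Lrrtm2, a synaptic adhesion protein (0.198), and the serine protease Htra1 (0.206). Nearest to Zmat3 were Pdk2, a kinase that inhibits pyruvate dehydrogenase (0.150), Anxa2, an annexin (0.169), and Gfral, a receptor of the brainstem (0.174). With the IL-4 arrays averaged, Tns1 did not pass (adjusted p = 0.189).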

How the data were processed

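Per the labels, the arrays were read with Affymetrix Expression Console and Transcriptome Analysis Console 4.0. The deposited values are log2 signals per probe set from RMA, by which the authors corrected background, normalized the arrays to each other and summarized probes, and they carry 2 decimals. Detection calls, scan dates and batches are not given in the sources used here, and arrays have no read depth, so their number limits the precision.

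IL-4 minus PBS was tested on all 23188 probe sets in R 4.3.3 by limma 3.58.1, using lmFit and eBayes, with Benjamini-Hochberg adjustment over all of them. Summaries were computed in Python 3.11.15. On simulated arrays the test recovered 93 of 100 true 2-fold changes and 99 of 100 true 3-fold changes, with 16 false calls among 23188 probe sets. Whether these rates hold for the deposited arrays, whose SDs and shares of equal values differed between the groups, was not tested. Probe sets were named from the platform annotation where it gave 1 symbol (15049 probe sets). Sequences are from RefSeq on GRCr8, whereas the submitters' processing notes name rn6, so levels carry no coordinates.

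The members and the gene lists were chosen with earlier results of these data known. Named are all measured members and relatives, the list genes with the largest change among those that passed (at most 4 a list), and the 3 genes nearest in profile to a member past 2-fold. Polk, Ppm1d, Tigar, Bax, Bbc3, Pidd1, Usp7, Atf4, Asns, Chac1, Atf3, Trib3, Ppp1r15a, Ccnb1, Ccne1, E2f1 and Cspg4 were chosen after their values were seen. Marker lists are given by their means, counts and leading genes.

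Replicate numbers did not pair the arrays (correlations of deviations between -0.018 and 0.0059). The alternatives were quantile normalization, median subtraction, a filter on dim probe sets (under the 40th percentile), an intensity trend with a robust prior, array weights, the replicate block, the methods' t-test of equal variance, the lowest-mean probe set, multi-symbol probe sets and each array left out, and, added after seeing the data, the IL-4 arrays averaged. For the p53 targets the lowest-mean and multi-symbol settings hold the main fit, since no target has a second probe set.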

Additional observations from a re-analysis of the deposited data

Results flagged for a closer look

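An array stood apart from the other 3 of its group by Dixon's criterion for 4 samples in 16 of 158 groups of values tested, where chance alone flags about 1 in 20. The p53 targets concerned were Zmat3 at 8.95 on IL-4 array 2 (the others 9.07), Sesn2 at 11.13 on IL-4 array 4 (the others 11.07) and Pmaip1 at 3.43 on IL-4 array 4 (the others 3.46), all genes in which the other 3 IL-4 arrays held equal values. Among relatives and other targets these were Cdkn1c at 10.49 on IL-4 array 2, Phlda2 at 4.49 on IL-4 array 1 and Triap1 at 8.33 and Tigar at 6.38 on IL-4 array 4. In the further lists Aurka stood at 9.22 and Trib1 at 4.68 on IL-4 array 1. Ddit3 stood at 8.79 and Foxo1 at 9.68 on PBS array 4. Of the microglial markers, C1qb stood at 15.08 on IL-4 array 4, Cx3cr1 at 5.72 on IL-4 array 2, and C1qa at 11.52 and Cx3cr1 at 8.25 on PBS array 4. The pericyte marker Rgs5 stood at 5.35 on PBS array 1.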

How the results depend on the processing

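None of the 8 p53 targets changed direction under the alternatives run, and of their 143 values 127 kept their side of the threshold. The lowest-mean and multi-symbol settings repeat the main fit for these genes. The trend, replicate block, t-test, dim filter and averaged settings change only the p-value, so they could not turn a direction. With the IL-4 arrays averaged, 1 target (Zmat3) was lower, against 4, 1 was lower by more than 2-fold, against 2, and of the other p53 targets 0 were lower and 0 higher, against 9 and 6, while 16 of all probe sets were lower and 56 higher. 1 target (Pmaip1) was higher with quantile normalization and 1 by the methods' t-test. Leaving out single arrays gave 3 to 5 targets lower and 0 to 1 higher, 6 to 8 other targets lower and 4 to 6 higher. The replicate block left 4 targets past the threshold, the same genes. Quantile normalization gave 3582 lower and 3279 higher probe sets (52.2% of calls lower), against 4563 and 2776 (62.2%) as deposited. Of the other named genes, those that changed sign had no call. Phlda2 was at 0.0014 and Mdm4 at 0.0666 with quantile normalization, Atf4 at -0.0189 and Chac1 at 0.0234 with array weights, and leaving out single arrays gave -0.0383 to 0.345 for Phlda1, -0.0808 to 0.0858 for Phlda2, -0.161 to 0.00667 for Mdm4, -0.095 to 0.282 for Bax, -0.202 to 0.215 for Atf4, -0.61 to 0.0733 for Asns and -0.378 to 0.392 for Chac1. The cause was not tested. Signal over background is unknown, so differences of dim genes such as Pmaip1 and Epha2 cannot be read exactly.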
